A study of Homo sapiens with 60 samples.

Results

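HepG2 cells, an established human liver cancer line, were treated for 24 h with a 70% ethanol extract of Menthae Herba. Menthae Herba is the dried above-ground parts of mint. Messenger RNA of the cells was sequenced. The comparison set 500 ug/mL (the high dose, 3 libraries) against 20 ug/mL (the low dose, 3 libraries), chosen by the dose and replicate in the sample labels, so it rests on 6 of the 60 libraries of the series. Values are also given for the middle dose of 100 ug/mL (3 libraries), for vehicle (3 libraries), and for 500 and 20 ug/mL of 2 other extracts, Saposhnikoviae Radix (3 libraries a dose) and Soyo-san (2 libraries a dose). Soyo-san is a traditional formula of several herbs of which mint is one. All cells were the same line in the same medium, and all groups received their treatment for 24 h. The labels give 0.1% DMSO for vehicle, while the series design names 2% DMSO; which applies cannot be read from the files. Per the design, the high dose was 500 ug/mL unless a lower concentration already gave 20% inhibition, and the other doses were 1/5 and 1/25 of it. Nothing in the labels says that replicates came from separate cultures, so each p-value reflects library-to-library spread alone, part or all of which may be technical. Menthae Herba and Saposhnikoviae Radix carry the same set number in the labels, Soyo-san another, and vehicle its own set label, so that for vehicle the set and the treatment cannot be told apart.

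HepG2 cells keep much of the programme of hepatocytes: they make and secrete plasma proteins and apolipoproteins, synthesize cholesterol and fatty acids under sterol regulatory element-binding proteins (SREBPs), and induce detoxification enzymes through the aryl hydrocarbon receptor (AHR) and NRF2. Cells adjust these programmes through a small number of sensors. Metallothioneins follow free zinc through the transcription factor MTF1, amino acid and other stress acts through ATF4, and insulin represses IGFBP1 and G6PC1 through FOXO factors.

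At 500 ug/mL, metallothionein, sterol and fatty acid synthesis, secreted protein, basement membrane and BMP target transcripts were lower than at 20 ug/mL. IGFBP1, CYP1A1, NRF2 and ATF4 targets and glycolytic enzymes were higher. Genes were tested with edgeR's quasi-likelihood F test on the counts of 57 libraries in 22 groups, and a gene is called higher or lower where its Benjamini-Hochberg adjusted p over 16982 tested genes was under 0.05. Of these, 3954 were called between 500 and 20 ug/mL, which is 23.3% of the genes tested: 1836 higher (10.8%) and 2118 lower (12.5%). The median absolute log2 fold change of the called genes was 0.28, and 247 genes (1.45%) changed at least 2-fold, 87 of them higher and 160 lower. In 3827 of the 3954 called genes the 3 high-dose values did not overlap the 3 low-dose values, which held for 38.7% of all tested genes. Between 100 and 20 ug/mL 20 genes were called (0.118%), 4 higher and 16 lower, while 1140 had an unadjusted p under 0.05. Levels are given as CPM, counts per a fixed library size of 1 M counts after scaling by the trimmed mean of M values (TMM), so each is a share of its library. A rise or fall is given as the log2 fold change at 500 over 20 ug/mL unless said otherwise. In bulk RNA, fewer cells and less RNA per cell cannot be told apart.

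The 3 high-dose libraries held 24.3 to 31.8 M counts and the 3 low-dose libraries 22.2 to 23.8 M. Replicate 1 of the high dose was the deepest of the 6 and stood above the other 2 in several ATF4 targets. Some of the results that lean on it, not all, are given with and without it. Without it 3543 genes were called. Mitochondrially encoded transcripts took 13.3 to 14.9% of counts at 500 ug/mL and 11.8 to 11.9% at 20 ug/mL, and none of the 13 was called, against 7 with no filter on low counts and 3 in a fit of only the groups compared; their part in the other results was not tested. The hepatocyte markers AFP, ALB, APOB and GPC3 were abundant at both doses, as the label has it. Markers of other cell types were mostly at or near 0. Of 9 stromal markers COL1A2 and DCN had no count, and the 4 tested members summed to 46.5 to 48.9 CPM at 500 ug/mL and 65.3 to 69.1 CPM at 20 ug/mL, nearly all of it ACTA2 and PDGFRB. Of 7 endothelial markers KDR, TEK and EMCN had no count, and the 4 tested members summed to 2.88 to 4.46 CPM at 500 ug/mL and 5.55 to 6.26 CPM at 20 ug/mL. Of 11 blood cell markers HBB, LST1 and TYROBP had no count and PTPRC and CD3E had 1 each; lysozyme (LYZ) carried nearly all of the sum of the 6 tested members, which was 1572 to 1617 CPM at 500 ug/mL and 1162 to 1338 CPM at 20 ug/mL. Of 9 lung and gut markers NKX2-1 and SFTPC had no count, and VIL1, the 1 member tested, had 294 to 331 CPM at 500 ug/mL and 343 to 347 CPM at 20 ug/mL. What part these lists have in the results was not tested.

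**Figure D1:**
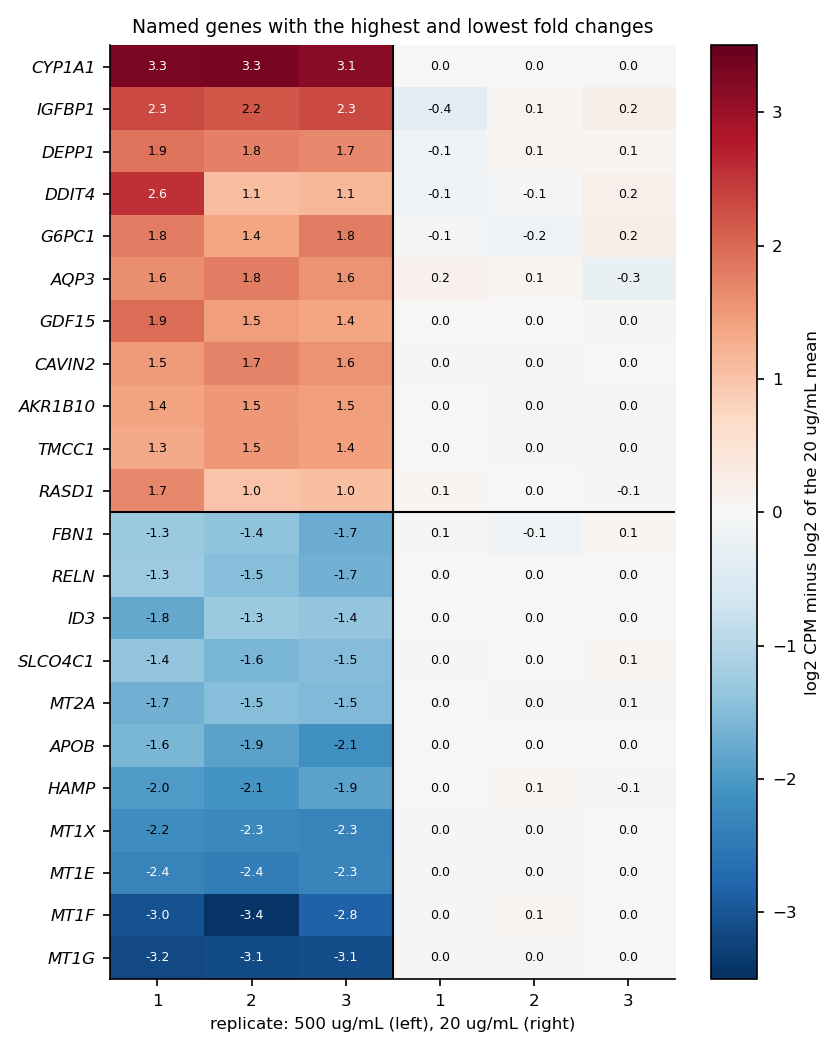
Each cell is the log2 CPM of one library minus the log2 of the mean of the 20 ug/mL libraries; rows are the reported genes with the highest (top) and the lowest (bottom) fold changes under the naming rule, columns the 3 libraries at 500 ug/mL (left of the line) and the 3 at 20 ug/mL (right). All genes shown separate the groups, which the naming rule required, and DDIT4 and RASD1 are highest in replicate 1 of the high dose.

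Metallothioneins held the largest falls of the heat map of single libraries. They are small cysteine-rich proteins that bind zinc and copper. MT1G (ENSG00000125144) had 6.16, 6.22 and 6.38 CPM at 500 ug/mL, against 56.7, 53.5 and 54.4 CPM at 20 ug/mL. MT1E had 20.4, 19.4 and 20.9 CPM at 500 ug/mL and 107, 102 and 103 CPM at 20 ug/mL. MT2A, the most abundant of those tested, had 56.1, 63.9 and 62.0 CPM at 500 ug/mL and 179, 173 and 186 CPM at 20 ug/mL. The replicates of each group lay close together and the groups were far apart, where the naming rule already required no overlap. The log2 fold changes were -3.13 ± 0.12 (SE, adjusted p = 8.6e-25) for MT1G, -2.36 ± 0.098 (adjusted p = 5.6e-24) for MT1E and -1.56 ± 0.11 (adjusted p = 5e-16) for MT2A, in edgeR's test. MT1F and MT1X fell likewise, by 3.07 and 2.25 on the log2 scale. SLC30A1, which exports zinc from the cell and is, like the metallothioneins, induced by zinc through MTF1, fell to 63.0 CPM at 500 ug/mL, against 112 CPM at 20 ug/mL (log2 fold change -0.82). All 8 tested members of the list of metallothioneins and zinc export fell, with a median log2 fold change of -2.31, beside a median of 0.0018 over all genes tested. MT1A and MT1M averaged under 2 CPM at both doses, and MT1M had only a few counts in each high-dose library. The metallothionein genes lie side by side on chromosome 16 and are near copies of each other, so the division of reads among them by the authors' counting is uncertain, while all of those tested moved the same way.

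The promoters of 3 of these genes are printed because the members fell together and the sequence shows the letters that MTF1 is known to read. The stretches run from 250 bases before to 50 bases after the gene start in RefSeq (GRCh38.p14), 5′ to 3′ on the gene's strand. Capitals mark the core of the metal response element, TGCGCNC or TGCACNC, on either strand.
MT2A: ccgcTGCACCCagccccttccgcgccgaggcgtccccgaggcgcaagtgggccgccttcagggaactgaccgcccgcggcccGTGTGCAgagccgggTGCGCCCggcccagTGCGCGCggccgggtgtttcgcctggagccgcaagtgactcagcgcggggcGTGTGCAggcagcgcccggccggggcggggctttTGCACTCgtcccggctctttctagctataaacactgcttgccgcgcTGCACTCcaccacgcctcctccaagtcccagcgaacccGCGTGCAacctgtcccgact
MT1X: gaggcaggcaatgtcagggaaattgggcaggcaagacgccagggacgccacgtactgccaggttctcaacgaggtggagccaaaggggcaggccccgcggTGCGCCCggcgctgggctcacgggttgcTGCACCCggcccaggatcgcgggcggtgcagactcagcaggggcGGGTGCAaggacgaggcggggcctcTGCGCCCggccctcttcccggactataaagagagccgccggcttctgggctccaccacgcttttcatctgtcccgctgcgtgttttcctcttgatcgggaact
SLC30A1: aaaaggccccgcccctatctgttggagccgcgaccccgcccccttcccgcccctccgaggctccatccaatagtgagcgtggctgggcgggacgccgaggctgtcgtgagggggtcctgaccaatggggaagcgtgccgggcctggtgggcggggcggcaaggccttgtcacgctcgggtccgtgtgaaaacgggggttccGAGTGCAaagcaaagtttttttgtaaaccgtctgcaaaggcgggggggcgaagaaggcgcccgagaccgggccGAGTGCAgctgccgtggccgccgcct
These are chr16:56608334-56608633 on the plus strand for MT2A, chr16:56682220-56682519 on the plus strand for MT1X and chr1:211579112-211579411 on the minus strand for SLC30A1. The matches number 8 in MT2A, 4 in MT1X and 2 in SLC30A1. Of 35116 promoters of the same length, 8.6% held at least 2 matches, 0.601% at least 4 and 0.0199% at least 8. The 3 promoters were picked as those of genes known to respond to zinc, so these shares reflect the choice. MT1H, which was not tested, MT1X, MT2A and SLC30A1 were the 4 members of the list with a promoter entry, and all 4 held at least 2. A match is a description of the letters and says nothing of binding.

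Transcripts of sterol synthesis fell together. Of 25 tested genes of cholesterol synthesis and uptake, 24 were called lower and none higher, with a median log2 fold change of -0.86. HMGCS1, which makes the HMG-CoA of the mevalonate pathway, had 183, 203 and 195 CPM at 500 ug/mL and 509, 499 and 529 CPM at 20 ug/mL. Each high-dose library lay far below each low-dose library. The log2 fold change was -1.40 ± 0.061 (edgeR adjusted p = 2.4e-23). The later steps fell less evenly: MVD by 1.20, LSS by 1.07, SQLE by 1.04, IDI1 by 0.85 and NSDHL by 0.48 on the log2 scale. SREBF2, the regulator of the pathway, fell by 0.50. PMVK (-0.075) did not pass the test. INSIG1, the sensor that retains SREBPs in the endoplasmic reticulum, was under 0.4 CPM at both doses, and its call was lost without replicate 1 of the low dose or replicate 2 of the high dose.

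Fatty acid synthesis moved with it, since 14 of 15 tested genes were lower, none was higher, and the median log2 fold change was -0.65. ACSS2, which makes acetyl-CoA from acetate, had 53.5, 56.3 and 56.2 CPM at 500 ug/mL and 137, 137 and 136 CPM at 20 ug/mL. SCD, the stearoyl-CoA desaturase, had 1359, 1355 and 1322 CPM at 500 ug/mL and 2674, 2695 and 2718 CPM at 20 ug/mL. Both groups were tight, and they did not overlap in either gene, which the naming rule required of SCD. The log2 fold change was -1.31 ± 0.038 for ACSS2 (adjusted p = 2e-29), and -1.0 ± 0.033 for SCD (edgeR adjusted p = 2.5e-27). FADS2 and FADS1, the desaturases of polyunsaturated fatty acids, fell by 1.29 and 0.78, FASN, the fatty acid synthase, by 0.66, its regulator SREBF1 by 0.65, and ACACA, acetyl-CoA carboxylase, by 0.44 on the log2 scale. ACACB (-0.029) did not pass the test. Oxidation of fatty acids and the targets of PPARA gave a mixed picture, with 6 of 19 tested genes higher and 3 lower. Those higher included PLIN2, a lipid droplet coat protein (212 ± 7.50 CPM at 500 ug/mL and 122 ± 1.82 CPM at 20 ug/mL, SD, n = 3 each), and CPT1A, which admits fatty acids to mitochondria (70.3 ± 1.12 CPM at 500 ug/mL and 45.1 ± 3.86 CPM at 20 ug/mL). Log2 fold changes were 0.80 for PLIN2 and 0.64 for CPT1A.

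APOB, the structural protein of very low density lipoprotein, was the transcript with the largest fall in CPM. Its level was 8886, 7411 and 6115 CPM at 500 ug/mL and 26848, 26993 and 27383 CPM at 20 ug/mL. The 3 high-dose libraries differed more among themselves than the low-dose ones, and each lay far below them, where the naming rule already required no overlap. The log2 fold change was -1.86 ± 0.081 (edgeR adjusted p = 2.4e-23). Other secreted hepatocyte proteins fell by less: of 23 tested, 16 were lower, with a median of -0.45. ALB, serum albumin, had 7267, 7173 and 6602 CPM at 500 ug/mL and 9172, 9609 and 9864 CPM at 20 ug/mL. Its log2 fold change was -0.45 ± 0.05 (edgeR adjusted p = 8.8e-10). HPX, which binds free heme, fell by 1.01, TF, transferrin, by 0.50, SERPINA1, alpha-1 antitrypsin, by 0.36, APOA1, the main protein of HDL, by 0.33 and APOE by 0.29 on the log2 scale. The 10 identity markers of HepG2 and hepatocytes, of which 8 were lower, summed to 24071 to 27673 CPM at 500 ug/mL and 51369 to 53499 CPM at 20 ug/mL. APOA2 (0.017), RBP4 (-0.0068), AMBP (0.092) and TTR (-0.019) did not pass the test.

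Coagulation and complement components were lower in 23 of 31 tested genes, with a median of -0.57, and MASP1 alone was higher (0.53). C3, the central complement protein, had 1271 CPM at 500 ug/mL and 2377 CPM at 20 ug/mL (means, log2 fold change -0.90). C4A and C4B, which are near copies of each other, fell by 1.07 and 1.08, C5 by 0.94, and coagulation factor V (F5) by 1.03, while prothrombin (F2) fell by 0.26 on the log2 scale. FGA, FGB and FGG, the 3 chains of fibrinogen, fell by 0.71, 0.58 and 0.53. HP, haptoglobin, had 109, 108 and 106 CPM at 500 ug/mL and 189.7, 188 and 189.6 CPM at 20 ug/mL, a log2 fold change of -0.81 ± 0.046 (edgeR adjusted p = 4.7e-19). Of 14 tested acute phase and NF-kB genes 6 were higher and 3, HP among them, lower; without replicate 1 of the high dose or replicate 2 of the low dose 1 was lower. IL6R, the interleukin 6 receptor, CCL20 and CXCL8, both chemokines, rose by 0.84, 0.84 and 1.08, and ORM1 (0.0046) and ORM2 (-0.014) did not pass the test.

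Extracellular matrix and basement membrane genes, a list added after values were seen, were lower in 16 of 17 tested genes, with a median of -0.90 and none higher. FN1, fibronectin, had 6088, 5650.0 and 4700.5 CPM at 500 ug/mL and 11918, 11667 and 11924 CPM at 20 ug/mL. RELN, a secreted glycoprotein, had 669.8, 580.2 and 507 CPM at 500 ug/mL and 1628, 1625 and 1634 CPM at 20 ug/mL. HSPG2, the basement membrane proteoglycan perlecan, had 117, 111 and 105 CPM at 500 ug/mL and 274, 270.4 and 273 CPM at 20 ug/mL. The groups were separate in all 3, which the naming rule required of FN1 and RELN, and replicate 3 of the high dose was the lowest. Their log2 fold changes were -1.11 ± 0.045 (adjusted p = 3.4e-24), -1.48 ± 0.054 (adjusted p = 7.5e-26) and -1.29 ± 0.058 (adjusted p = 6.3e-23) in that order, in edgeR's test. The laminin chains LAMA5, LAMC1, LAMB2 and LAMB1 fell by 1.16, 0.90, 0.69 and 0.54 on the log2 scale, and NID1, nidogen, by 0.91. FBN1, fibrillin, and COL2A1, a fibrillar collagen, fell by 1.46 and 1.40, both from levels under 100 CPM, and COL4A2 (0.51) did not pass the test.

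Transcript length moved with the direction of the calls. The genes called lower had a median transcript length of 4186.5 bases, those called higher 3214 and all tested genes 3085. Among calls of at least 2-fold the median was 2953 for the 160 lower and 2361 for the 87 higher, both below that of all tested genes. In 10 bins of genes ordered by length, the share called lower was 21.8% in the longest bin and 2.6% in the shortest, with a step up at each bin between them. The share called higher was 9.55% in the longest bin and 3.61% in the shortest. The matrix genes had a median length of 7394 bases, and APOB 14121. With each library's trend on GC content and length removed, 2857 genes were higher and 2066 lower, or 58% higher against 46.4% without the removal. Under that removal APOB had a log2 fold change of -1.78, FN1 -1.05, HMGCS1 -1.40 and MT1G -3.12, and the matrix list a median of -0.83. The Wnt list had 8 genes lower under the removal and 12 without it, the mitosis list 23 and 21. The median of fatty acid synthesis was -0.57 under the removal and -0.65 without it. What part length has in the direction of the calls was not tested.

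**Figure D2:**
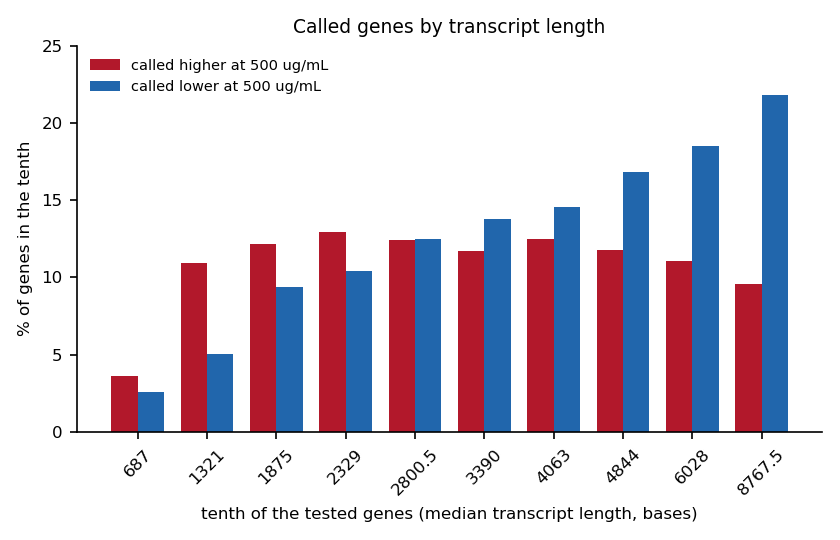
Percentage of genes called higher and called lower at 500 against 20 ug/mL (edgeR adjusted p under 0.05) in 10 bins of the tested genes ordered by transcript length; the labels are the median length of each bin in bases. The bars for genes called lower are tallest in the longest bin (21.8%) and smallest in the shortest (2.6%), while those for genes called higher are smallest at both ends (9.55% and 3.61%).

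Targets of bone morphogenetic protein (BMP) signalling through SMADs formed another group, also listed after values were seen: 9 of 10 tested were lower, none higher, and the median was -1.08. HAMP, which encodes the iron hormone hepcidin, had 6.26, 5.83 and 6.74 CPM at 500 ug/mL and 24.9, 26.1 and 23.8 CPM at 20 ug/mL. ID3, an inhibitor of basic helix-loop-helix factors, had 14.5, 20.5 and 19.4 CPM at 500 ug/mL and 50.6, 50.8 and 50.0 CPM at 20 ug/mL. Neither gene overlapped between the groups, as the naming rule required. Log2 fold changes were -1.99 ± 0.10 for HAMP (adjusted p = 8.7e-21) and -1.49 ± 0.11 for ID3 (adjusted p = 3.6e-15) in edgeR's test. ID1 fell by 1.16, ID2 by 1.04, and the inhibitory SMAD7 and SMAD6, which these signals induce as feedback, by 1.06 and 0.65 on the log2 scale. BAMBI (-0.20) did not pass the test. The HAMP promoter is shown because BMP signals reach hepcidin there; capitals mark GGCGCC, the core of its BMP response element.
HAMP: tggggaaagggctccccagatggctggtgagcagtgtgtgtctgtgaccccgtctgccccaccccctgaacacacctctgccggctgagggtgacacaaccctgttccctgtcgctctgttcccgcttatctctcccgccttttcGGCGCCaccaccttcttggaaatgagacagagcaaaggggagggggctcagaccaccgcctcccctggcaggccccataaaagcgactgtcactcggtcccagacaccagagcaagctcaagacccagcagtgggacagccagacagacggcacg
It spans chr19:35282278-35282577 on the plus strand (RefSeq, GRCh38.p14) and holds 1 match, as did at least 1 in 19.2% of 35116 promoters of this length.

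IGFBP1 and G6PC1, which insulin represses and FOXO1 induces in liver, were among the largest rises. IGFBP1, a secreted binding protein for insulin-like growth factors, had 201, 183 and 201 CPM at 500 ug/mL and 31.6, 43.4 and 46.7 CPM at 20 ug/mL. G6PC1, the catalytic subunit of glucose-6-phosphatase, had 10.6, 7.85 and 10.5 CPM at 500 ug/mL and 2.90, 2.66 and 3.5 CPM at 20 ug/mL. The lowest high-dose library exceeded the highest low-dose library in both, as the naming rule required. Log2 fold changes were 2.27 ± 0.21 (adjusted p = 4.5e-12) and 1.68 ± 0.19 (edgeR adjusted p = 2.2e-09). DEPP1, a FOXO target named for its response in decidua, rose by 1.79. In the list of gluconeogenesis and FOXO targets 7 of 12 tested genes were higher, with a median of 0.38, and 1 was lower, a call lost without replicate 1 or 2 of 20 ug/mL or replicate 2 of 500 ug/mL. PPARGC1A, a coactivator of gluconeogenic genes, rose by 0.73, PCK1, phosphoenolpyruvate carboxykinase, by 0.78 at levels under 5 CPM, and TXNIP by 0.27. INSR, the insulin receptor, had 75.9 CPM at 500 ug/mL and 81.7 CPM at 20 ug/mL and did not pass the test.

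Targets of ATF4, the factor of the integrated stress response, were higher in 13 of 19 tested genes and lower in 1, with a median of 0.63. DDIT4, an inhibitor of mTORC1, had 131, 47.3 and 49.4 CPM at 500 ug/mL and 20.2, 21.3 and 25.3 CPM at 20 ug/mL. SLC7A11, the cystine importer, had 169, 88.3 and 75.9 CPM at 500 ug/mL and 50.2, 49.7 and 54.7 CPM at 20 ug/mL. ATF3, an induced factor of the same response, had 15.9, 6.48 and 6.58 CPM at 500 ug/mL and 3.74, 3.73 and 4.67 CPM at 20 ug/mL. In each of the 3 genes replicate 1 of the high dose was far above the other 2 high-dose libraries. These were still above the low dose, as the naming rule required of DDIT4. Log2 fold changes were 1.78 ± 0.21 for DDIT4 (adjusted p = 4.4e-09), 1.12 ± 0.14 for SLC7A11 (adjusted p = 9.7e-09) and 1.28 ± 0.19 for ATF3 (adjusted p = 7.3e-07) in edgeR's test. Without that library they were 1.13, 0.68 and 0.70, and the list had 10 higher and 1 lower with a median of 0.32. ASNS, asparagine synthetase, rose by 0.76, MTHFD2, of mitochondrial folate metabolism, by 0.67 and DDIT3, which encodes CHOP, by 0.63 in the full set. SLC7A5, the leucine importer, fell by 0.26, and TRIB3, which had 185, 131 and 132 CPM at 500 ug/mL and 133, 139.8 and 136 CPM at 20 ug/mL, did not pass the test. GDF15, a secreted stress cytokine, had 348, 249 and 235 CPM at 500 ug/mL and 89.2, 88.5 and 92.9 CPM at 20 ug/mL. Its log2 fold change was 1.62, and 1.43 without replicate 1 of the high dose. The ASNS promoter is printed since the response element of ATF4 with C/EBP was described in it; capitals mark TGATGNAA.
ASNS: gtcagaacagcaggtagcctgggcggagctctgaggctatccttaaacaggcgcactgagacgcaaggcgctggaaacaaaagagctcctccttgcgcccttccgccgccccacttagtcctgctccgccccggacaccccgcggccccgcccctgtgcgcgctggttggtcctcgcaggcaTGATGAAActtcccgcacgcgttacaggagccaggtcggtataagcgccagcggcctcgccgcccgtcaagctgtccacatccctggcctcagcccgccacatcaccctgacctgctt
It spans chr7:97872359-97872658 on the minus strand (RefSeq, GRCh38.p14). ASNS has 2 promoter entries, and the one printed ranked first by number of matches. Of the 17 list members with an entry, 5 held this motif in at least 1 entry: ASNS, ATF3, CHAC1, FGF21 and SLC3A2. CHAC1 and FGF21 were not tested, and SLC3A2 did not pass the test. Counted per single promoter, 3.62% of 35116 held it, a unit unlike that of the list.

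Genes of the unfolded protein response of the endoplasmic reticulum were mostly lower, 12 of 20 tested being lower and 3 higher, with a median of -0.26. HSP90B1, a chaperone of the endoplasmic reticulum, had 752, 714 and 671 CPM at 500 ug/mL and 1078, 1028 and 1053 CPM at 20 ug/mL, a log2 fold change of -0.56 ± 0.037 (edgeR adjusted p = 6.7e-17). HSPA5, the chaperone BiP, fell by 0.46, HYOU1 by 0.54, PDIA4 by 0.47, CALR by 0.31 and SEL1L, of the degradation complex, by 0.65 on the log2 scale. HERPUD1, DNAJB9 and EDEM1 were the 3 that rose. HERPUD1 had 129, 77.2 and 71.8 CPM at 500 ug/mL and 61.7, 59.3 and 59.7 CPM at 20 ug/mL, highest in replicate 1 of the high dose. Without that library the log2 fold change of HERPUD1 was 0.32, against 0.63 with it. The list then had 13 genes lower and 1 higher. Of 19 tested heat shock genes of the cytosol, 2 were higher and 2 lower, beside 10.8% higher and 12.5% lower of all tested genes. Without replicate 2 or replicate 3 of the high dose 1 was higher and 1 lower. HSPA1A (-0.22) and HSPH1 (0.054) did not pass the test.

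NRF2 targets were higher in 20 of 23 tested genes and lower in 2, with a median of 0.48. NQO1, a quinone reductase, had 794, 858 and 803 CPM at 500 ug/mL and 453, 464 and 447 CPM at 20 ug/mL. AKR1B10, an aldo-keto reductase, had 131, 140.5 and 134 CPM at 500 ug/mL and 49.1, 50.5 and 47.4 CPM at 20 ug/mL. Replicates agreed closely, and the groups stood apart, as the naming rule required of AKR1B10. The log2 fold change was 0.85 ± 0.04 for NQO1 (adjusted p = 3.1e-22) and 1.46 ± 0.058 for AKR1B10 (edgeR adjusted p = 1.6e-24). GCLM and GCLC, the subunits of the enzyme that starts glutathione synthesis, rose by 0.76 and 0.48, TXNRD1, thioredoxin reductase, by 0.50, FTL, the light chain of ferritin, by 0.45 and SQSTM1, an autophagy receptor outside the list, by 0.82. AKR1C1 and AKR1C2, which share much of their sequence, rose by 0.92 and 0.84. HMOX1, heme oxygenase 1, was among the 2 that fell and had 42.5, 44.3 and 45.6 CPM at 500 ug/mL and 50.0, 47.2 and 52.2 CPM at 20 ug/mL. The call of HMOX1 (-0.18 ± 0.052) was lost without replicate 1 of the high dose (-0.14) and without replicate 3 of the low dose (-0.13).

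CYP1A1, the cytochrome P450 enzyme that AHR ligands induce, had the largest fold change of the named genes that were higher. Its level was 64.5, 65.5 and 58.6 CPM at 500 ug/mL and 6.56, 6.66 and 6.6 CPM at 20 ug/mL, a log2 fold change of 3.25 ± 0.099 (edgeR adjusted p = 1.1e-28). Of 6 tested AHR targets 3 were higher, the others being NQO1 and ALDH3A1, and TIPARP (-0.10) and AHRR (0.35), which the receptor also induces, did not pass the test. CYP3A4, the main target of the xenobiotic receptor PXR, was under 0.5 CPM in all 6 libraries and did not pass the test. Of the 8 tested targets of PXR and the related receptor CAR 3 were higher and 2 lower, or 1 lower without replicate 2 of 20 ug/mL or replicate 3 of either dose. Those higher were 2 without replicate 1 of either dose, replicate 2 of 20 ug/mL or replicate 3 of 500 ug/mL. ALAS1, which starts heme synthesis, ABCC2, an export pump of conjugates, and CYP3A5 rose by 0.54, 0.64 and 0.35, and POR, which passes electrons to P450 enzymes, and ABCB1, an efflux pump, fell by 0.27 and 0.18 on the log2 scale. The call of CYP3A5 was lost in each of the fits that left 2 higher. Phase II enzymes went both ways, with 4 of 21 tested genes higher and 9 lower, or 5 lower without replicate 2 of either dose. SULT1A1 and MGST1 rose by 0.45 and 0.60, and UGT2B10 and GSTA1 fell by 0.41 and 0.26 on the log2 scale.

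Targets of hypoxia-inducible factors were higher in 13 of 19 tested genes, with none lower and a median of 0.48. NDRG1, a stress-induced protein, had 65.7, 82.1 and 83.4 CPM at 500 ug/mL and 41.1, 43.1 and 46.0 CPM at 20 ug/mL. LDHA, lactate dehydrogenase A, had 1468, 1604 and 1648 CPM at 500 ug/mL and 1055, 1095 and 1129.6 CPM at 20 ug/mL. Neither overlapped between groups, and replicate 1 was the lowest of the high dose in both. Log2 fold changes were 0.83 ± 0.09 (adjusted p = 4e-10) and 0.53 ± 0.062 (edgeR adjusted p = 4.1e-09). BHLHE40, a repressor, rose by 0.94, PDK1, which inhibits pyruvate dehydrogenase, by 0.69 and VEGFA by 0.41, while SLC2A1, the glucose importer GLUT1 (0.098), and ADM (0.13) did not pass the test. Glycolytic genes, a list added after values were seen that shares members with the hypoxia list, were higher in 14 of 19 with a median of 0.40. GAPDH, ALDOA and ENO1 were, beside FTL, the largest rises in CPM. GAPDH had 2944, 3285 and 3382 CPM at 500 ug/mL and 2362, 2454 and 2479 CPM at 20 ug/mL. The LDHA promoter is printed because it carries several copies of the core of the hypoxia response element; capitals mark ACGTG on either strand, and where 2 matches overlap on both strands they read CACGTG.
LDHA: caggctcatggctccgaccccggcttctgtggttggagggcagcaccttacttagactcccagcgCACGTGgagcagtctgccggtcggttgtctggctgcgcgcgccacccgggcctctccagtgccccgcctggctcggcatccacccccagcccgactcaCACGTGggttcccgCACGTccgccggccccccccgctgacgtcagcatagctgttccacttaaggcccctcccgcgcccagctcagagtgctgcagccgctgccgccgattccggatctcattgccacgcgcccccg
It spans chr11:18394313-18394612 on the plus strand (RefSeq, GRCh38.p14) and holds 5 matches, a number reached by 0.251% of 35116 promoters. LDHA was picked for its copies, and of its 2 entries the one printed ranked first by number of matches, so this share reflects the choice. Of 17 members of the hypoxia list with an entry 11 held at least 1 match in any of their entries. Counted per single promoter, 21.4% of all held at least 1, a unit unlike that of the list.

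**Figure D3:**
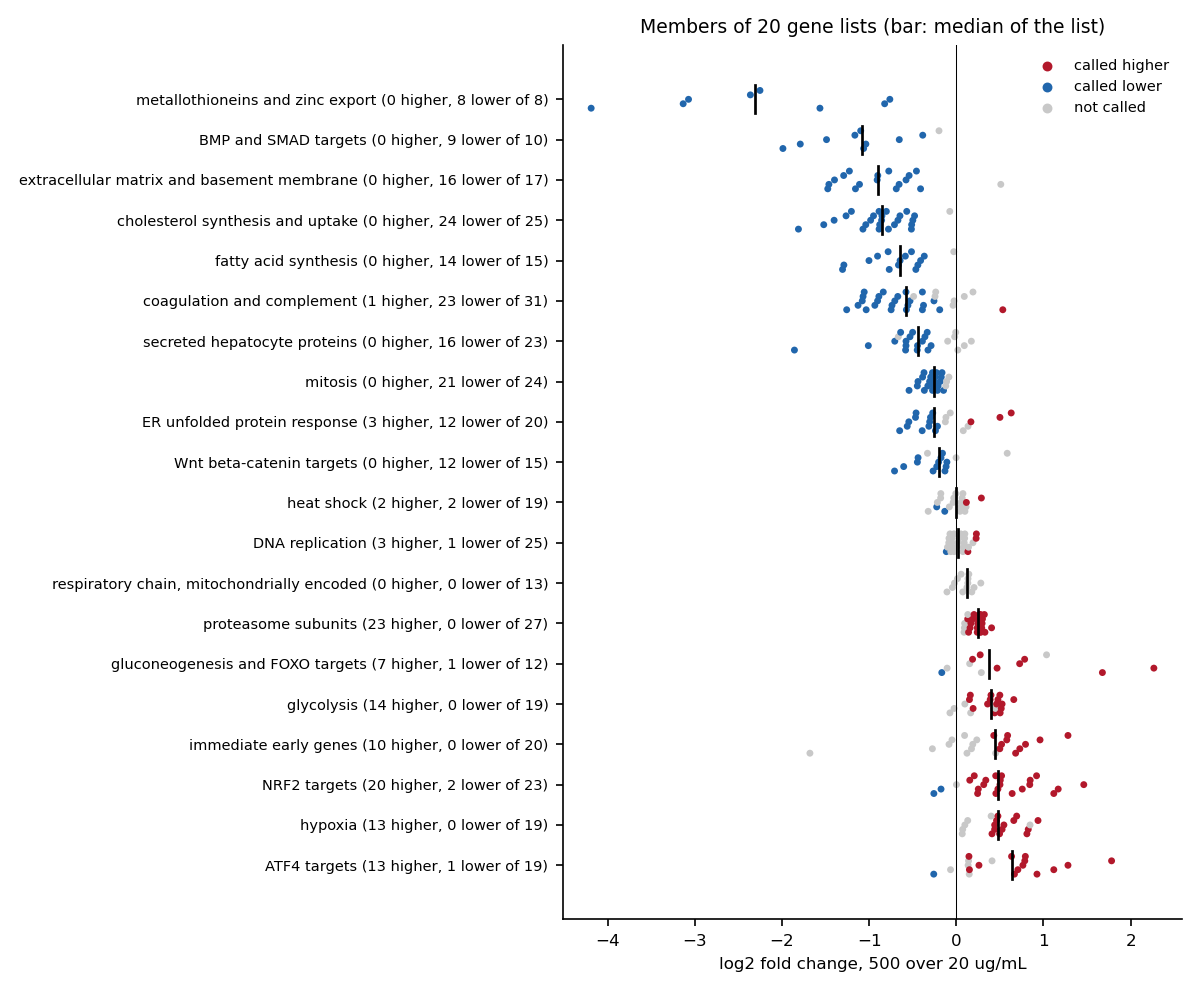
Log2 fold changes at 500 over 20 ug/mL of the tested members of 20 gene lists, each point a gene coloured by its call and each black bar the median of a list, lists ordered by median. Medians run from -2.31 for metallothioneins and zinc export to 0.63 for ATF4 targets, and no mitochondrially encoded gene was called.

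Growth-related genes split by function. Of 24 tested genes of mitosis 21 were lower and none higher, with a median of -0.26, whereas of 25 tested genes of DNA replication 3 were higher and 1 was lower, and 0 were lower without replicate 1 of the high dose. MKI67, the proliferation antigen Ki-67, had 374, 388 and 367 CPM at 500 ug/mL and 547, 506 and 488 CPM at 20 ug/mL. PLK1, a mitotic kinase, had 201, 204 and 205 CPM at 500 ug/mL and 273, 267 and 257 CPM at 20 ug/mL. Both were lower in all 3 high-dose libraries, with log2 fold changes of -0.45 ± 0.051 (adjusted p = 1.4e-09) and -0.39 ± 0.043 (edgeR adjusted p = 9.8e-10). PCNA (0.03) and MCM2 (0.0025), of the replication list, did not pass the test. Beside these lists, 10.8% of all tested genes were higher and 12.5% lower. CDKN1A, the cell cycle inhibitor p21, rose by 0.30. Of 21 tested p53 targets 6 were higher and 1 lower, with BAX (0.017) and FAS (0.037) not past the test. Proteasome subunits rose by small amounts, 23 of 27 being higher and none lower with a median of 0.25; PSMC4 led them at 0.40. Of 20 genes of ribosome biogenesis with MYC, 10 were higher, and MYC had 231, 205 and 195 CPM at 500 ug/mL and 158, 157 and 154 CPM at 20 ug/mL.

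Immediate early genes were higher in 10 of 20 tested, with none lower and a median of 0.44. Without replicate 1 of the high dose 9 were higher and the median was 0.34. KLF6, a zinc finger factor, had 157, 119 and 116 CPM at 500 ug/mL and 73.6, 76.3 and 77.0 CPM at 20 ug/mL. IER3 and JUN rose by 0.96 and 0.73, and by 0.97 and 0.61 without replicate 1 of the high dose. Of 13 tested targets of TGF-beta and YAP, 4 were higher and 6 lower; of these, THBS1 fell by 0.60 and SKIL by 0.61, and CCN2 (-0.11) did not pass the test. Wnt targets were lower in 12 of 15 tested genes with none higher, and the median was -0.20. With the GC content and length trends removed 8 were lower and the median was -0.13. The number lower was also 8 without replicate 1 of 20 ug/mL or with no filter on low counts, and 9 without replicate 1 of 500 ug/mL. NKD1 and NOTUM, both feedback inhibitors of Wnt, fell by 0.71 and 0.60, and AXIN2, a widely used readout of the pathway, by 0.18 on the log2 scale. Of 20 transcription factors of hepatocytes 7 were lower: CEBPA had 83.5, 78.2 and 96.7 CPM at 500 ug/mL and 136, 144 and 128 CPM at 20 ug/mL, and FOXA1 fell by 0.44, while HNF4A (-0.13) did not pass the test. NR1H4, the bile acid receptor FXR, fell by 0.50, and NR0B2, its target SHP, rose by 0.65. Interferon-stimulated genes held 1 higher and 2 lower of 17, with 0 lower without replicate 1 of the high dose or replicate 2 or 3 of the low dose. Histones held 2 lower of 14. Nuclear-encoded respiratory chain subunits held 4 higher of 25. That number was 1 without replicate 2 or 3 of the high dose or replicate 1 of the low dose. Beside these counts, 10.8% of all tested genes were higher and 12.5% lower.

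The 20 genes called between 100 and 20 ug/mL included 4 metallothioneins. That count depended on the processing: it was 231 in a fit of only the groups compared, 127 with no filter on low counts, 50 with the GC content and length trends removed, 80 with the replicate block as well and 47 with DESeq2. With 1 library left out the count was 6 to 16: 6 without replicate 3 of 20 ug/mL, 8 without replicate 2 of 100 ug/mL, 11 without replicate 1 of 100 ug/mL and 12 without replicate 1 of 20 ug/mL. MT1G averaged 62.9 ± 1.31, 54.9 ± 1.67, 37.2 ± 0.939 and 6.25 ± 0.115 CPM in vehicle and at 20, 100 and 500 ug/mL (SD, n = 3 each), with a log2 fold change at 100 over 20 ug/mL of -0.56 (edgeR adjusted p = 0.0025). FN1, RELN, ACSS2, FADS2, SCD and A2M were also lower at 100 ug/mL, by 0.28, 0.29, 0.24, 0.22, 0.17 and 0.24 on the log2 scale. NQO1, SQSTM1, CYP24A1, which degrades vitamin D, and MAT1A, a methionine adenosyltransferase, were the 4 that were higher. MAT1A had a log2 fold change of 0.21 at 100 over 20 ug/mL and of 0.053 at 500 over 20 ug/mL, where it did not pass the test. CYP1A1 averaged 8.25 ± 0.724, 6.61 ± 0.0487, 9.22 ± 1.38 and 62.9 ± 3.75 CPM in vehicle and at 20, 100 and 500 ug/mL, and HAMP 24.0 ± 1.52, 24.9 ± 1.15, 28.2 ± 0.429 and 6.28 ± 0.454 CPM, and neither was called between 100 and 20 ug/mL. IGFBP1 averaged 24.8 ± 4.47, 40.6 ± 7.94, 32.7 ± 5.12 and 195 ± 10.5 CPM in the same order.

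**Figure D4:**
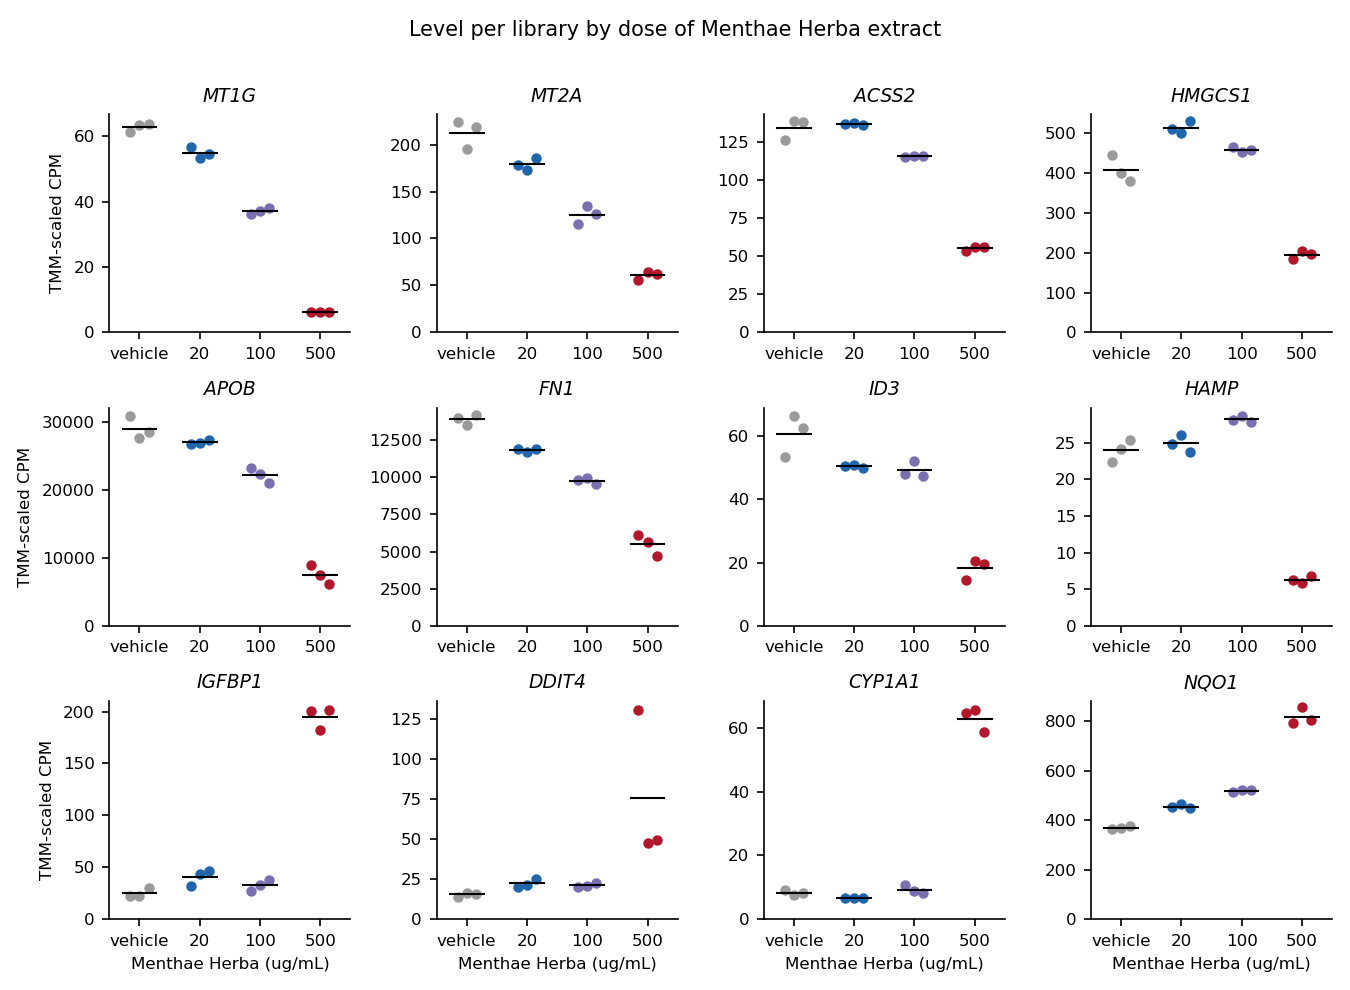
Levels of 12 genes in each library (points; bars are group means) in vehicle and at 20, 100 and 500 ug/mL of Menthae Herba, in TMM-scaled CPM on linear axes that start at 0. MT1G, MT2A and FN1 are lower at 100 than at 20 ug/mL, the fall of HAMP and ID3 appears at 500 ug/mL, and DDIT4 has 1 high-dose library at 131 CPM.

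Vehicle differed from both doses in many genes: 8185 were called at 500 ug/mL (48.2%) and 6461 at 20 ug/mL (38%), comparisons that share the vehicle libraries. The vehicle libraries stood apart in composition. Mitochondrially encoded transcripts took 15.8 to 19.1% of their counts, above the range of either dose. The slope of log2 level on GC content, taken against the mean of all libraries and per 10 percentage points, was -0.0362 to -0.0026 at 500 ug/mL, -0.0237 to -0.0028 at 20 ug/mL and 0.0906 to 0.216 in vehicle. With the GC content and length trends removed, 7415 genes were called at 500 ug/mL and 4482 at 20 ug/mL against vehicle. HMGCS1 averaged 408 ± 32.6, 512 ± 15.3 and 194 ± 10.2 CPM in vehicle and at 20 and 500 ug/mL (SD, n = 3 each). It was higher at 20 ug/mL than in vehicle (log2 fold change 0.33) and lower at 500 ug/mL than in vehicle (-1.07). ALB averaged 7195 ± 324, 9548 ± 350.1 and 7014 ± 360.0 CPM in vehicle and at 20 and 500 ug/mL, and its log2 fold change at 500 ug/mL over vehicle was -0.037 ± 0.05 (edgeR adjusted p = 0.58), which did not pass the test. MYC, the growth-related transcription factor, was lowest at 20 ug/mL, with 210.1 ± 4.74, 156 ± 1.98 and 210.0 ± 18.7 CPM in vehicle and at 20 and 500 ug/mL. MKI67 was below vehicle at both doses, with log2 fold changes of -0.35 at 20 ug/mL and -0.80 at 500 ug/mL. SCD and APOB did not pass the test between 20 ug/mL and vehicle (-0.0019 and -0.10) and were lower at 500 ug/mL than in vehicle (-1.0 and -1.96).

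The dose response of Menthae Herba was then set against that of the other extracts by testing the difference itself, in a contrast of (500 minus 20 ug/mL) between extracts. It differed from that of Saposhnikoviae Radix, the root of another herb in the same set, in 1803 genes (10.6%), with the change more positive for Menthae Herba in 737 and more negative in 1066. All 8 tested genes of metallothioneins and zinc export, 23 of 25 of cholesterol synthesis, 14 of 15 of fatty acid synthesis, 15 of 17 of the matrix and 14 of 19 ATF4 targets were among them. MT1G changed by -3.13 with Menthae Herba and 0.091 with Saposhnikoviae Radix (log2, difference -3.23 ± 0.16, edgeR adjusted p = 4.5e-20). HAMP changed by -1.99 with Menthae Herba and 0.46 with Saposhnikoviae Radix (difference -2.45 ± 0.13, edgeR adjusted p = 1.3e-18), in opposite directions. IGFBP1 changed by 2.27 with Menthae Herba and -0.043 with Saposhnikoviae Radix (difference 2.31 ± 0.31, edgeR adjusted p = 1.9e-07). CYP1A1 rose with both, to 62.9 ± 3.75 CPM with Menthae Herba and 86.9 ± 2.12 CPM with Saposhnikoviae Radix at 500 ug/mL, against 6.61 ± 0.0487 CPM with Menthae Herba and 16.4 ± 1.21 CPM with Saposhnikoviae Radix at 20 ug/mL (SD, n = 3 each).

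From Soyo-san the response differed in 625 genes (3.68%), 108 more positive and 517 more negative for Menthae Herba. These held 6 of 8 tested genes of metallothioneins and zinc export, 19 of 25 of cholesterol synthesis, 15 of 31 of coagulation and complement, 14 of 17 of the matrix and 12 of 20 of the unfolded protein response. MT1G changed by -3.13 with Menthae Herba and -1.62 with Soyo-san (difference -1.51 ± 0.19, edgeR adjusted p = 1.1e-07), so it fell with both. APOB changed by -1.86 with Menthae Herba and -0.20 with Soyo-san (difference -1.66 ± 0.12, edgeR adjusted p = 1.1e-13). FN1 changed by -1.11 with Menthae Herba and 0.24 with Soyo-san, in opposite directions (difference -1.35 ± 0.071, edgeR adjusted p = 1.2e-18). CYP1A1 rose less with Menthae Herba than with Soyo-san (difference -0.65 ± 0.15, edgeR adjusted p = 0.005), and reached 62.9 ± 3.75 CPM with Menthae Herba and 223 ± 18.1 CPM with Soyo-san at 500 ug/mL (SD, n = 3 and 2). NQO1 and AKR1B10 had differences of 0.13 ± 0.062 and 0.18 ± 0.092 from Soyo-san that did not pass the test. Soyo-san lies in another set, so the extract and the set cannot be told apart in the levels, while each extract's doses share a set.

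**Figure D5:**
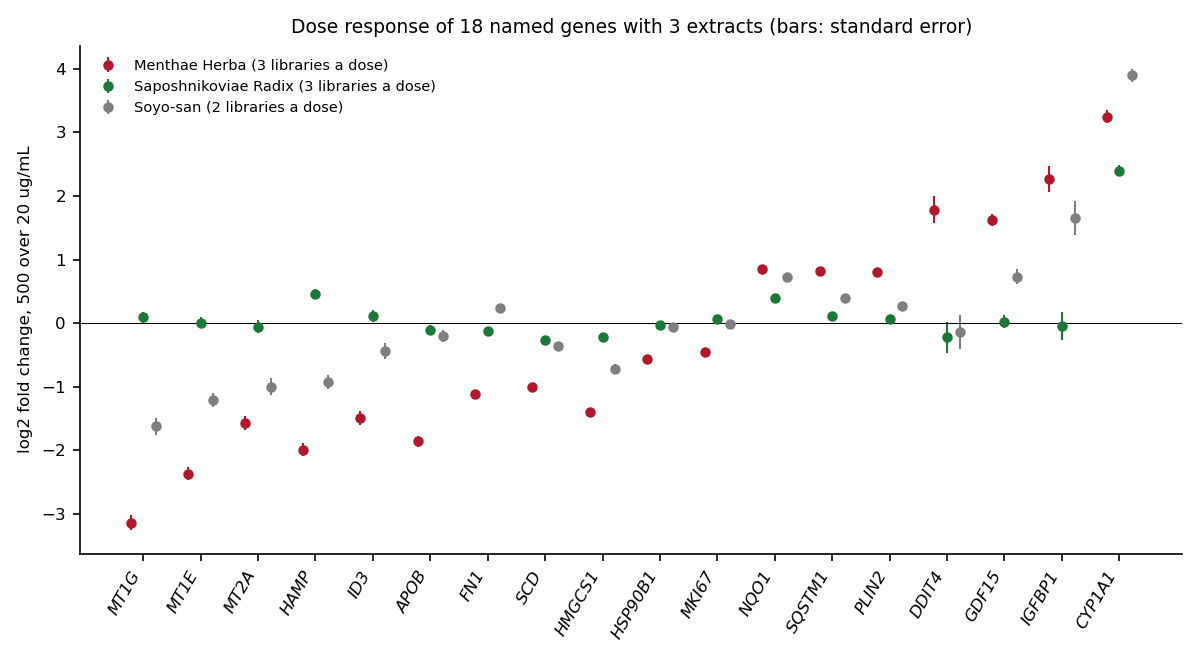
Log2 fold changes at 500 over 20 ug/mL of 18 named genes with Menthae Herba, Saposhnikoviae Radix and Soyo-san (points; bars are standard errors of edgeR's fit). MT1G stands at -3.13, 0.091 and -1.62, IGFBP1 at 2.27, -0.043 and 1.65, and CYP1A1 at 3.25, 2.40 and 3.90 in that order of extracts.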

How the data were processed

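Per the labels, total RNA with an integrity number above 7 was made into directional libraries and read as 100 bp pairs. Per the submitters' processing notes, the tools were FastQC 0.11.9 and Trim Galore 0.6.5 for the reads, STAR 2.7.3a for alignment and RSEM 1.3.3 for counting, with GRCh38 as the build. Which annotation release and which strand option were used is not given in the sources used here, so overlapping and antisense genes, like near-identical copies, are uncertain. The deposited values are the authors' expected counts per gene, not normalized; 10.0% were not whole and were rounded. Symbols came from GENCODE 29, which held 57055 of 60675 gene IDs. Each group was read from the labels.

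Genes were tested in R 4.3.3 with edgeR 4.0.16 (TMM, filterByExpr with a minimum count of 10, group as the only term) on 57 libraries in 22 groups, with 35 residual degrees of freedom and a common dispersion of 0.00216. Okbyeongpung-san was left out, with 1 library a dose. Standard errors were the log2 fold change over the root of F. The steps were tested on simulated data. Alternatives were RLE scaling, DESeq2 1.42.0, other filters, a fit of only the groups compared, a replicate block, removal of GC content and length trends, and leaving out each library, where a lone library left in an arm takes its spread from the other groups.

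Members and lists were chosen with earlier results of these data known. Named genes were protein-coding genes called at 500 against 20 ug/mL, a mean of 5 CPM or more in either dose and no overlap of libraries: the 12 highest and 12 lowest log2 fold changes, and the 6 largest rises and falls in CPM. To these were added a panel of 8 genes (ALB, MKI67, CDKN1A, CYP1A1, CYP3A4, HMGCS1, HMOX1 and TRIB3) and at most 4 called members of each list. Not every gene that the rule picked is reported here. Further list members given as examples, and the matrix, BMP and glycolysis lists, were chosen after values were seen. Same-numbered libraries of the 2 Menthae Herba doses did not deviate together. Those of Saposhnikoviae Radix did so in 1 of 3 pairs by the limit of 0.1 (0.105 in replicate 3), while replicate 1 had -0.107. The Soyo-san pairs had a correlation of 0.234. That is 1 value for both pairs, since 2 libraries a dose deviate as mirror images. The labels tie no replicate number to a batch or day, so numbers were not taken to pair libraries. No libraries of a group were copies (chi-square per gene at least 1.79). Promoters came from the RefSeq table (GRCh38.p14), and motifs were searched on both strands.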

Additional observations from a re-analysis of the deposited data

Results flagged for a closer look

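Each value given here is a difference between extracts in the log2 fold change at 500 over 20 ug/mL, tested in edgeR as a contrast of both extracts' doses. Against Saposhnikoviae Radix the change differed in 1803 of 16982 genes. Among the panel genes the difference was 0.85 for CYP1A1, whose own log2 fold changes were 3.25 with Menthae Herba and 2.40 with Saposhnikoviae Radix. It was -1.19 for HMGCS1 (-1.40 with Menthae Herba and -0.21 with Saposhnikoviae Radix) and -0.51 for MKI67 (-0.45 with Menthae Herba and 0.062 with Saposhnikoviae Radix). For ALB it was -0.37 (-0.45 with Menthae Herba and -0.079 with Saposhnikoviae Radix), and for HMOX1 -0.36 (-0.18 with Menthae Herba and 0.18 with Saposhnikoviae Radix). CDKN1A had a difference of 0.45 (0.30 with Menthae Herba and -0.15 with Saposhnikoviae Radix). Against Soyo-san, with 2 libraries a dose, the change differed in 625 genes. The difference was -0.65 for CYP1A1 (3.25 with Menthae Herba and 3.90 with Soyo-san) and -0.69 for HMGCS1 (-1.40 with Menthae Herba and -0.71 with Soyo-san). For MKI67 it was -0.43 (-0.45 with Menthae Herba and -0.019 with Soyo-san). For ALB it was -0.27 (-0.45 with Menthae Herba and -0.17 with Soyo-san), a difference that lost its call in 7 of 10 fits that left out 1 library.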

How the results depend on the processing

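Of 2209 alternative values of 159 named genes at 500 against 20 ug/mL, 2128 kept their direction and their side of the threshold, 80 of 20 genes lost the call, 1 gained it (TRIB3 with no filter on low counts) and 0 reversed. HMOX1 lost its call without replicate 1 of the high dose (-0.14), without replicate 3 of the low dose (-0.13) and with no filter (-0.16). Leaving out 1 library gave 3230 to 3543 genes at 500 against 20 ug/mL, 7374 to 7915 at 500 ug/mL against vehicle, 5484 to 6559 at 20 ug/mL against vehicle, 1457 to 1648 for the difference from Saposhnikoviae Radix and 428 to 664 for that from Soyo-san. For 100 against 20 ug/mL, where 20 genes were called, it gave 6 to 16. That count was 127 with no filter, 50 with the GC content and length trends removed, 80 with the replicate block as well, 231 in a fit of only the groups compared and 47 with DESeq2. The difference from Soyo-san was called in 997 genes with the replicate block and both trends removed. At 500 against 20 ug/mL the replicate block gave 4050 genes, where same-numbered libraries had correlations of 0.0825, -0.0244 and -0.0141, and DESeq2 gave 3621. With no filter 52.3% of 3664 calls were higher. The causes of these changes were not tested. Genes under 1 CPM (MT1M, INSIG1 and CYP3A4) rest on few counts, so the depth limits what can be said of them.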

Other observations

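Several of the largest changes at 500 against 20 ug/mL belong to none of the gene groups described. AQP3, a channel for water and glycerol, had 5.88, 6.52 and 5.63 CPM at 500 ug/mL and 2.10, 2.00 and 1.57 CPM at 20 ug/mL (log2 fold change 1.66). CAVIN2, a coat protein of caveolae, had 54.1, 64.1 and 56.6 CPM at 500 ug/mL and 19.5, 18.5 and 19.4 CPM at 20 ug/mL (1.61). TMCC1, a protein of the endoplasmic reticulum, had 50.1, 57.2 and 54.2 CPM at 500 ug/mL and 19.7, 20.6 and 19.4 CPM at 20 ug/mL (1.43). SLCO4C1, an organic anion transporter, had 19.7, 17.0 and 17.8 CPM at 500 ug/mL and 49.6, 50.6 and 53.3 CPM at 20 ug/mL (-1.49). PEG10, an imprinted gene derived from a retrotransposon, had 3296, 3362 and 3243 CPM at 500 ug/mL and 5138, 5090.0 and 5123 CPM at 20 ug/mL (-0.63). The groups did not overlap in any of these 5 genes, as the naming rule required.

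Autophagy and lysosome genes moved both ways, 6 of 18 tested being higher and 6 lower. GABARAPL1 and MAP1LC3B, which build autophagosomes, rose by 0.49 and 0.20, while the lysosomal membrane proteins LAMP1 and LAMP2 and the protease CTSD fell by 0.27, 0.25 and 0.28 on the log2 scale. Of 14 tubulins 1 was lower, or none without replicate 1 of either dose or replicate 2 of 20 ug/mL, and 7 were higher, among them TUBB2B (0.57) and TUBB6 (0.46), and the most abundant, TUBB (-0.014) and TUBA1B (0.11), did not pass the test. Of 11 bile acid genes 2 were higher, NR0B2 (0.65), a repressor of bile acid synthesis, and SLC51A (0.39), a subunit of a bile acid exporter, or 1 with any 1 library left out other than replicate 3 of 20 ug/mL. In the same list 5 were lower, including CYP27A1 (-0.27), which oxidizes sterols, and ABCB4 (-0.40), which exports phospholipid into bile.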
